A study of Mus musculus with 15 samples.

Results

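The FoxO transcription factor genes *Foxo1*, *Foxo3* and *Foxo4*, the growth arrest and DNA damage genes *Gadd45a*, *Gadd45b* and *Gadd45g*, the cell cycle inhibitor gene *Cdkn1a* and the death receptor gene *Eda2r* were followed in mouse tibialis anterior, a fast muscle of the lower leg. They were chosen by gene symbol, with earlier results of these data known. Each symbol matched 1 row of the count table, and the set made 8 of 30672 genes. All 8 passed the filter on low counts, as did 15533 genes in all. The 15 libraries came from male mice of strain 129Pas aged 7 weeks, in 4 groups. WT mice (n = 4) carried an intact *Mtm1*, WT+TAM mice (n = 4) had the same genotype and received tamoxifen (TAM), a selective oestrogen receptor modulator. Mtm1-/y males (n = 4) lacked the X-linked gene for myotubularin, a phosphatase of phosphoinositide lipids whose loss causes X-linked myotubular myopathy, and Mtm1-/y + TAM males (n = 3) received tamoxifen as well. The sources used here do not give the dose, route or duration of the drug.

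FoxO proteins are forkhead factors that the insulin pathway holds outside the nucleus through phosphorylation by AKT, and in muscle they switch on genes of protein breakdown, fuel choice and cell cycle arrest when that signal is low. GADD45 proteins are small stress proteins without enzyme activity that bind p21, PCNA and the kinase MAP3K4, and *Gadd45a* is known for its rise in denervated and immobilised muscle. *Cdkn1a* encodes p21, an inhibitor of cyclin-dependent kinases and a classical p53 target. *Eda2r* encodes a tumour necrosis factor receptor family member that binds the A2 form of ectodysplasin, signals to NF-kappaB and is itself a p53 target. In adult muscle most nuclei are post-mitotic, so these genes are read there mainly as markers of stress and wasting programmes.

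The promoters of the 4 genes with the widest differences between genotypes are given first, from 250 bases before to 50 bases after the RefSeq start site on GRCm38.p6, each 5′ to 3′ on the strand of its gene. Capitals mark exact matches to 6 searched motifs on either strand. These were the forkhead motif GTAAACA, the insulin response core TGTTTT, the composite stress element TGATGCAA, the cAMP response element TGACGTCA, the E-box CAGCTG and the p53 half-site, taken by its name. Positions count from 1 at the start site, with negative positions before it.
Gadd45a, chr6:67037358-67037657, minus strand: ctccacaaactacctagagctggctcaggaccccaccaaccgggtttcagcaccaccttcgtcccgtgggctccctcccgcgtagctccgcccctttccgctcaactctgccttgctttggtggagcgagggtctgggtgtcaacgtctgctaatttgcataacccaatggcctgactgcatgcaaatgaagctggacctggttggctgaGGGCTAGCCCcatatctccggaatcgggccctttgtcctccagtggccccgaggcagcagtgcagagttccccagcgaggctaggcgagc
Gadd45b, chr10:80929841-80930140, plus strand: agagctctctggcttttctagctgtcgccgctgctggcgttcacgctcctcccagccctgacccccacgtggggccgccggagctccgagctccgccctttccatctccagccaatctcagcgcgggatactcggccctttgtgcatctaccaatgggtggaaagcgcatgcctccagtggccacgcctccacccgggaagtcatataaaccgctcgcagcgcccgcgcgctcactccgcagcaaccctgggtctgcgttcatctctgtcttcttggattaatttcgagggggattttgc
Cdkn1a, chr17:29090729-29091028, plus strand: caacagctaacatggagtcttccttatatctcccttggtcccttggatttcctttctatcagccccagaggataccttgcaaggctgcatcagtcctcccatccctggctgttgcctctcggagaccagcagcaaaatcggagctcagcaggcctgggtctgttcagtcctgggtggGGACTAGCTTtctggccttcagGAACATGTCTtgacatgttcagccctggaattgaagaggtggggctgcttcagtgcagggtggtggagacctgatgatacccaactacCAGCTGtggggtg
Eda2r, chrX:97377160-97377459, minus strand: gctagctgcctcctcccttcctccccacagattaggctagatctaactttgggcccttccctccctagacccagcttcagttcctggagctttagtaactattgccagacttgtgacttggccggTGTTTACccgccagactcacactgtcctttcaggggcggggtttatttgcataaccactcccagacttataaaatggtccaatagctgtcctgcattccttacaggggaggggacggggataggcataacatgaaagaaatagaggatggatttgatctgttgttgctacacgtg
The capitals in *Gadd45a* are a p53 half-site that begins at -40. In *Cdkn1a* they are p53 half-sites that begin at -73 and -51 and an E-box at 38, and in *Eda2r* a forkhead motif at -125. No searched motif was in the *Gadd45b* window. RefSeq entries were matched for 7 of the 8 genes, with 8 windows because *Cdkn1a* has a second start (chr17:29093519-29093818), and none was found for *Foxo4*. *Gadd45g* (chr13:51846425-51846724) held a composite stress element at -101 and an E-box at -55, while the *Foxo1* and *Foxo3* windows and the second *Cdkn1a* window held no match. Among all 32851 RefSeq promoter windows of this length, 3.65% held the forkhead motif, 22.1% the insulin response core, 0.895% the composite stress element, 1.79% the cAMP response element, 16.3% the E-box and 8.36% a p53 half-site. A match is a description of letters, and binding was not measured.

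The libraries held 18042558 to 45823277 counts. The targeted gene *Mtm1* checked the labels, at 13.5 to 17.7 CPM (counts scaled by library size and TMM factor) in the WT+TAM libraries, 14.9 to 15.6 in WT, 2.91 to 3.63 in Mtm1-/y and 3.04 to 3.71 in Mtm1-/y + TAM. Mtm1-/y replicate 1 stood apart on the second principal component (-69.1) and WT+TAM replicate 1 on the third (-73.1), and results are given with and without this pair where it matters. Fast fibre markers, which should lead in tibialis anterior, summed to between 128137 and 230127 CPM in every library. In bulk muscle, fewer cells of a type and less RNA per cell cannot be told apart.

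Per kilobase of exon, the order of levels differed between genotypes. In WT, *Gadd45g* (60.1 ± 14.1 CPM per kb, SD, n = 4) and *Foxo4* (54.5 ± 3.36) were highest, and their ranges overlapped. *Gadd45b* (22.4 ± 3.53), *Cdkn1a* (10.5 ± 4.73) and *Gadd45a* (8.45 ± 0.778) followed, the last pair with overlapping ranges. *Foxo3* (2.68 ± 0.229), *Foxo1* (2.32 ± 0.202) and *Eda2r* (1.62 ± 0.36) were lowest, with *Foxo1* overlapping *Foxo3* but not *Eda2r*. In Mtm1-/y, *Gadd45g* (99.9 ± 39.3), *Cdkn1a* (93.1 ± 17.4) and *Gadd45a* (65.5 ± 23.2) led with overlapping ranges. *Foxo4* (41.5 ± 5.78) overlapped *Gadd45a*, and *Eda2r* (24.6 ± 4.62) stood between *Foxo4* and the other three without overlap. *Foxo1* (7.65 ± 5.08), *Foxo3* (6.26 ± 3.08) and *Gadd45b* (5.30 ± 2.67) came last and overlapped each other. *Gadd45b* thus stood above 5 of the other genes in WT and below all of them in Mtm1-/y, while *Eda2r* was last in WT and stood above 3 of them in Mtm1-/y.

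**Figure D1:**
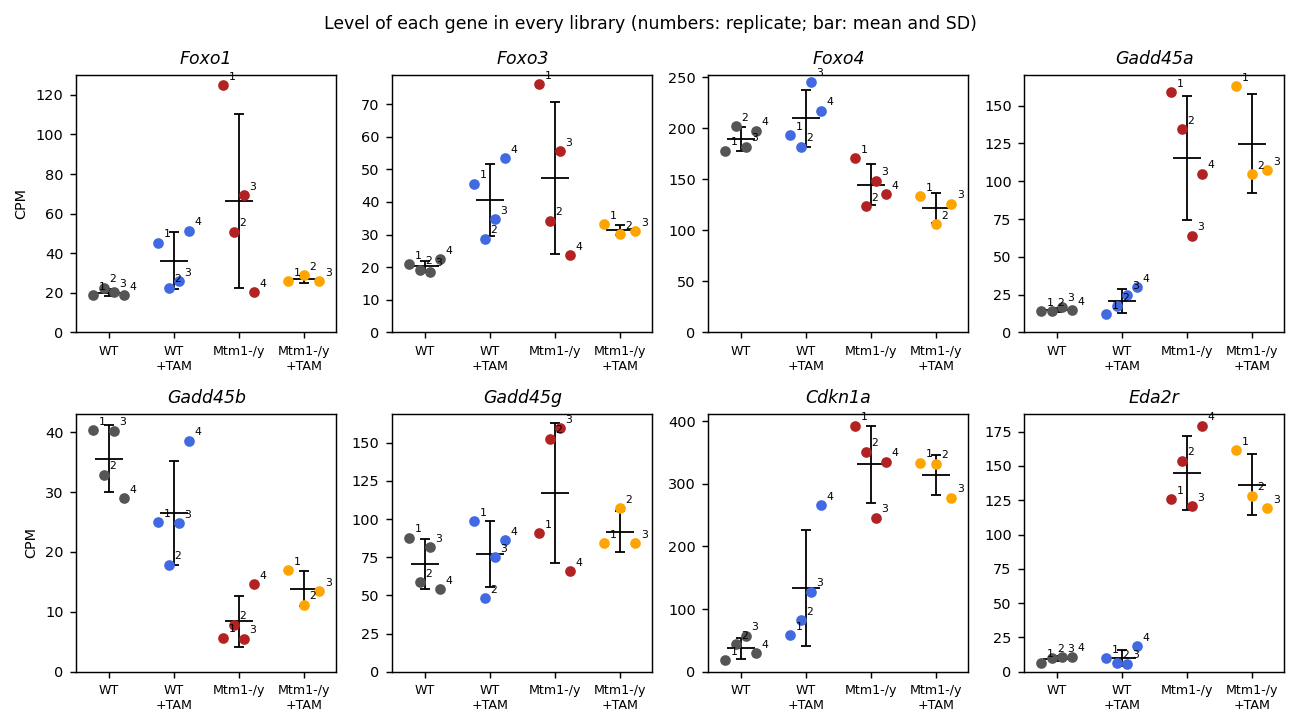
Level of the 8 genes in each of the 15 libraries, in CPM on a linear axis from 0, with a panel per gene and a column of points per group. Numbers beside points are replicate numbers, and bars give the group mean and SD. *Eda2r* and *Gadd45a* sit higher in all 7 mutant libraries than in all 8 wild-type libraries, whereas *Foxo1* spreads from 20.3 to 124.9 CPM among the 4 untreated mutants.

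The comparison of Mtm1-/y with WT asked how loss of myotubularin alone changed these genes. In edgeR's quasi-likelihood test, 7 of the 8 passed an adjusted *P* value of 0.05, with 5 higher and 2 lower in the mutant, where 30.4% of the 15533 tested genes passed (15.5% higher and 14.9% lower). The receptor *Eda2r*, the p21 gene *Cdkn1a* and *Gadd45a* rose most, *Foxo1* and *Foxo3* rose less, *Gadd45b* fell and *Foxo4* fell slightly. The groups did not overlap for 6 of the 8, against 30.5% of all tested genes. The median log2 fold change (log2FC) of the 8 was 1.48, and that of all tested genes was 0.00047. Because the 8 were chosen with earlier results of these data known, these contrasts with all genes are a description and not a test.

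*Eda2r* (chrX:97333840-97377216, minus strand) was at 6.40, 10.3, 10.6 and 10.9 CPM in WT replicates 1 to 4. In Mtm1-/y it was at 126, 154, 120 and 179 CPM. Every mutant library was far above every WT library, with no mutant value near the WT range. The log2FC was 3.93 ± 0.34 (SE derived from the edgeR test statistic), a 15.2-fold difference (edgeR adjusted *P* = 6.35e-06). It was 3.99 (adjusted *P* = 3.79e-05) without the 2 libraries that stood apart. Its promoter window, shown above, held a forkhead match and no p53 half-site, and a link of either to this difference was not tested.

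*Cdkn1a* (chr17:29090976-29100727, plus strand) was at 18.7, 43.9, 57.4 and 29.8 CPM in WT and at 392, 351, 245 and 335 CPM in Mtm1-/y. WT values varied widely among themselves, and the mutant values lay far above them. Its log2FC was 3.15 ± 0.45, or 8.85-fold (edgeR adjusted *P* = 0.000302). *Gadd45a* (chr6:67035096-67037457, minus strand) was at 13.9, 14.1, 16.9 and 14.7 CPM in WT and at 159, 134, 63.8 and 105 CPM in Mtm1-/y. The mutant range was wide, with replicate 3 lowest, and did not overlap WT. Its log2FC was 2.95 ± 0.31, or 7.75-fold (edgeR adjusted *P* = 2.76e-05). *Gadd45a* shares its locus with *E230016M11Rik* on the opposite strand, which had 20 to 114 counts per library against 293 to 6071 for *Gadd45a*, and it is unknown here whether the counting used strand.

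*Gadd45b* (chr10:80930073-80932204, plus strand), an early stress gene of the same family, went the other way. It was at 40.3, 32.9, 40.2 and 29.0 CPM in WT and at 5.70, 7.86, 5.53 and 14.6 CPM in Mtm1-/y. All mutant libraries were below all WT libraries, with replicate 4 the highest of the mutants. The log2FC was -2.07 ± 0.31, a 4.21-fold lower level (edgeR adjusted *P* = 0.000314). *Gadd45g* (chr13:51846678-51848468, plus strand), the most abundant family member in WT, was at 87.7, 58.8, 81.5 and 54.2 CPM in WT and at 90.6, 153, 159 and 66.0 CPM in Mtm1-/y. Replicates 2 and 3 of the mutant were high and replicate 4 lay within the WT range, so the groups overlapped. Its log2FC of 0.73 ± 0.28 (95% interval 0.13 to 1.33) did not pass (edgeR adjusted *P* = 0.0624), whereas DESeq2 gave 0.0234 (33.5% of all genes called) and limma-voom 0.0713 (30.7%). The fit without Mtm1-/y replicate 4 gave 0.0152 and the fit without WT+TAM replicate 2 gave 0.0446.

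The makeup of the Gadd45 family was taken per library. Scaled by exon length, *Gadd45a* made 9.52% ± 1.75 of the 3 Gadd45 transcripts in WT and 39.3% ± 14.2 in Mtm1-/y (SD, n = 4 each), a difference of 29.7 percentage points. The share of *Gadd45b* was 24.8% ± 1.19 in WT and 3.44% ± 2.60 in Mtm1-/y, and that of *Gadd45g* was 65.7% ± 2.74 and 57.3% ± 15.5. *Gadd45a* was the largest part of the family in Mtm1-/y replicates 1 and 4 (52.7% and 47.7%) and the smaller part beside *Gadd45g* in replicates 2 and 3 (36.1% and 20.6%). A two-sided exact permutation test of the *Gadd45a* share gave *P* = 0.0286, the smallest that 4 against 4 libraries allow. After Benjamini-Hochberg adjustment over 8 share tests it was 0.114. With so few libraries no outcome could have passed after this adjustment, so the test cannot decide.

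**Figure D2:**
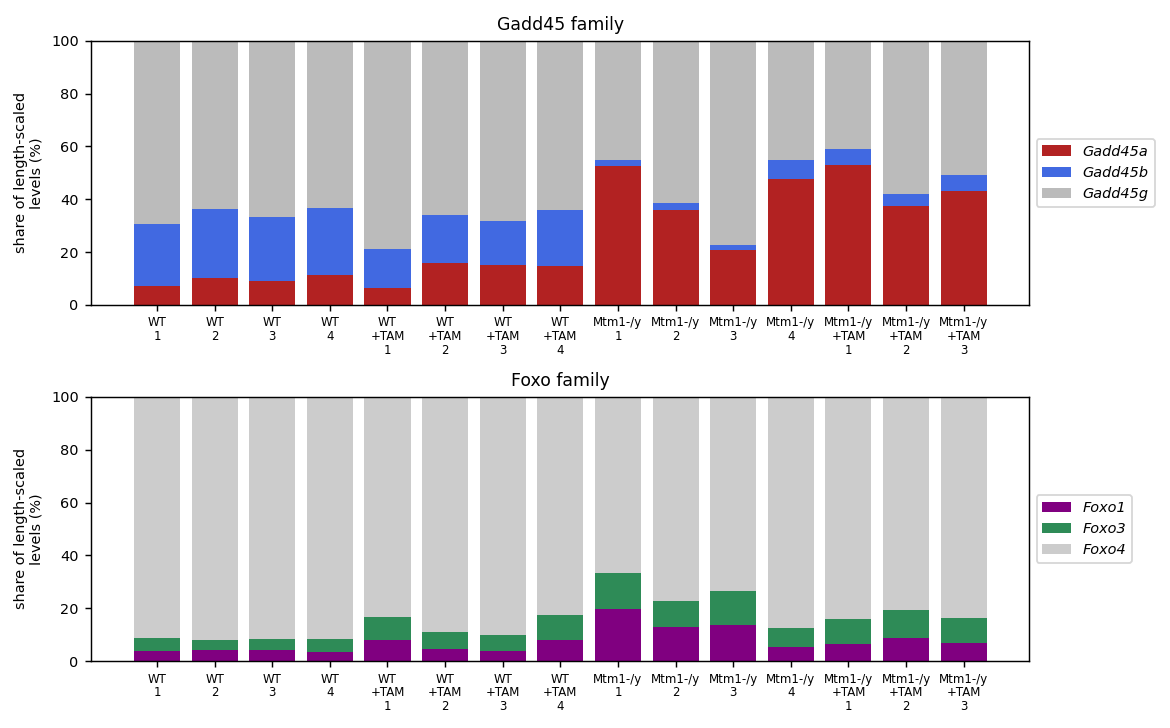
Share of each gene in its family per library, in percent of the summed length-scaled levels, for the 3 Gadd45 genes (top) and the 3 Foxo genes (bottom). Bars are single libraries labelled by group and replicate. The *Gadd45a* part runs from 6.37% to 15.7% in wild-type libraries and from 20.6% to 52.9% in mutant ones, and *Foxo4* makes the most of the Foxo family in every library.

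Among the forkhead factors, *Foxo1* (chr3:52268336-52353221, plus strand), the family member most tied to muscle atrophy programmes, was at 18.7, 22.5, 20.2 and 18.9 CPM in WT. In Mtm1-/y it was at 124.9, 50.9, 69.2 and 20.3 CPM. Replicate 4 lay inside the WT range and replicate 1 far above it, so the mutant group was far more spread than WT. The log2FC was 1.73 ± 0.42, or 3.31-fold (edgeR adjusted *P* = 0.00842). It was 1.22 (adjusted *P* = 0.0256) without Mtm1-/y replicate 1 and 2.03 (adjusted *P* = 0.000682) without replicate 4.

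*Foxo3* (chr10:42181841-42276755, minus strand), a regulator of autophagy and proteolysis genes in muscle, was at 20.8, 19.2, 18.6 and 22.4 CPM in WT and at 76.2, 34.2, 55.5 and 23.7 CPM in Mtm1-/y. The order of the mutant libraries was that of *Foxo1*, with replicate 4 just above the highest WT library. Its log2FC was 1.23 ± 0.29, or 2.34-fold (edgeR adjusted *P* = 0.0065), and 0.90 (adjusted *P* = 0.0167) without Mtm1-/y replicate 1. *Foxo4* (chrX:101254528-101260873, plus strand) was at 178, 202, 182 and 197 CPM in WT and at 171, 124, 149 and 136 CPM in Mtm1-/y. The groups lay next to each other without overlap. The log2FC of -0.39 ± 0.12 (edgeR adjusted *P* = 0.0216) was the smallest change of the 7, and it no longer passed without WT replicate 2 (0.0606), WT replicate 4 (0.0543), Mtm1-/y replicate 2 (0.0689) or Mtm1-/y replicate 4 (0.0552).

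*Foxo4* nonetheless remained the main Foxo transcript, at 91.6% ± 0.267 of the length-scaled sum in WT and 76.3% ± 8.77 in Mtm1-/y. *Foxo1* made 3.90% ± 0.273 and 12.9% ± 5.90 of it, and *Foxo3* 4.51% ± 0.421 and 10.8% ± 2.98. For the *Foxo1* share the exact permutation test gave *P* = 0.0286 (0.114 after adjustment over the 8 share tests, which no outcome could have passed). The fourth paralogue *Foxo6* was at 5.91 ± 0.44 CPM in WT and 3.60 ± 1.81 in Mtm1-/y, with a log2FC of -0.72 that did not pass (edgeR adjusted *P* = 0.204).

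**Figure D3:**
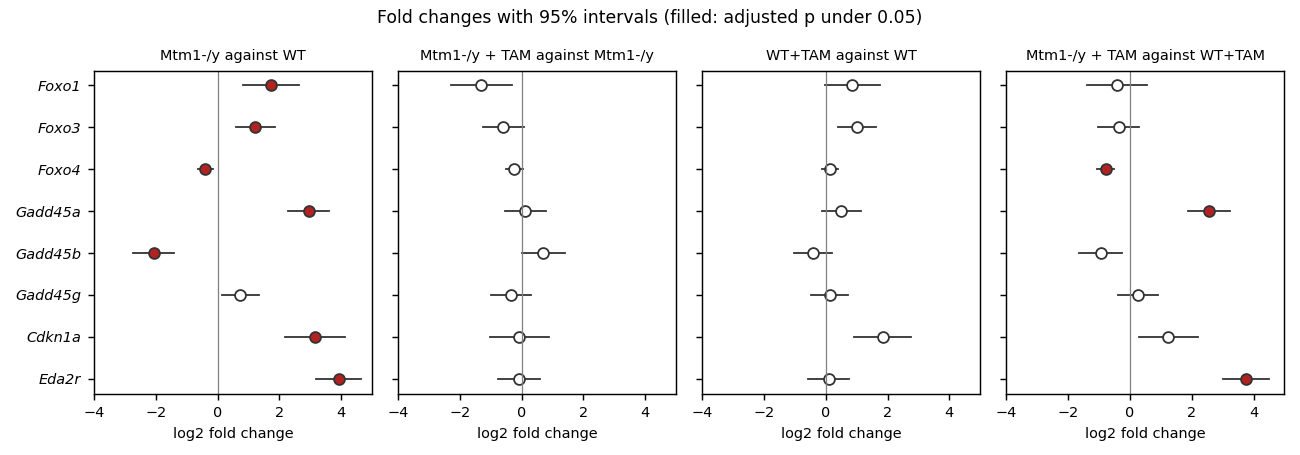
Log2 fold changes of the 8 genes in 4 comparisons, with 95% intervals derived from the edgeR test statistic as lines. Filled points passed an adjusted *P* value of 0.05 over 15533 genes, and open points did not. The filled points number 7, 0, 0 and 3 from left to right.

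Tamoxifen in the mutant was tested by Mtm1-/y + TAM against Mtm1-/y. None of the 8 genes passed in edgeR's test, in DESeq2 or in limma-voom, where 0.0129% of all genes passed in edgeR and limma-voom and 0.0258% in DESeq2, and their median log2FC was -0.17. At an unadjusted *P* under 0.05, 861 genes passed in all. The groups overlapped for every one of the 8, and did not for 5.71% of all genes. *Eda2r* was at 162, 128 and 119 CPM in the 3 treated mutants, *Cdkn1a* at 333, 332 and 277 CPM and *Gadd45a* at 163, 104.5 and 107 CPM. These values lay within or beside the range of the untreated mutants, and far above WT. The log2FC was -0.09 for *Eda2r* (95% interval -0.78 to 0.60), -0.07 for *Cdkn1a* (-1.04 to 0.89) and 0.11 for *Gadd45a* (-0.55 to 0.77). In size, the log2FC of these genes between Mtm1-/y and WT (3.93, 3.15 and 2.95) exceeded both ends of these intervals. A return towards WT was not tested.

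*Foxo1* and *Foxo3* showed another picture in the treated mutants. *Foxo1* was at 25.8, 28.9 and 25.8 CPM and *Foxo3* at 33.1, 30.1 and 31.0 CPM, in a range much narrower than that of the untreated mutants. Both ranges lay inside those of the untreated mutants and above those of WT. For *Foxo1* the log2FC was -1.31 ± 0.46 (edgeR adjusted *P* = 0.855), and -0.80 without Mtm1-/y replicate 1. For *Foxo3* it was -0.60 ± 0.31 (adjusted *P* = 0.855). *Gadd45b* was at 17.0, 11.2 and 13.4 CPM, with a log2FC of 0.70 ± 0.32 (adjusted *P* = 0.855), and both of its mutant groups stayed below every WT library. *Gadd45g* was at 84.1, 107 and 84.3 CPM, and *Foxo4* at 134, 106 and 126 CPM, with log2FC of -0.35 ± 0.30 and -0.25 ± 0.13. The *Gadd45a* share of its family was 44.5% ± 7.76 (n = 3), 5.27 points from the untreated mutants (exact permutation *P* = 0.629).

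Tamoxifen with intact *Mtm1* was tested by WT+TAM against WT. Again none of the 8 passed in edgeR, where 0.309% of all genes did (48 genes, and 1757 at an unadjusted *P* under 0.05), but *Foxo1*, *Foxo3* and *Cdkn1a* did not overlap between the groups, a state shared by 8.08% of all genes. *Cdkn1a* was at 58.2, 82.1, 127 and 266 CPM under tamoxifen, each above all 4 untreated libraries. Replicate 4 reached the range of the mutants. The log2FC was 1.84 ± 0.43, or 3.57-fold (edgeR adjusted *P* = 0.11). It passed in DESeq2 (adjusted *P* = 0.00838), where 1.92% of all genes passed, and without WT+TAM replicate 1 (0.0333), whereas limma-voom gave 0.0983 (0.251% of all genes called). Without WT+TAM replicate 4 the log2FC was 1.26 (adjusted *P* = 0.227). It passed in 1 of the 15 fits that left out a library, with adjusted *P* up to 0.258.

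*Foxo3* was at 45.6, 28.8, 34.7 and 53.4 CPM in WT+TAM and *Foxo1* at 45.2, 22.5, 25.9 and 51.4 CPM. Replicates 1 and 4 were high and replicates 2 and 3 low for both genes, with *Foxo1* in replicate 2 only just above the highest WT library. The log2FC was 1.00 ± 0.29 for *Foxo3* (edgeR adjusted *P* = 0.199, DESeq2 0.0262) and 0.86 ± 0.42 for *Foxo1* (edgeR adjusted *P* = 0.467, DESeq2 0.294). *Gadd45a* was at 12.0, 17.2, 24.8 and 30.0 CPM, *Gadd45b* at 24.9, 17.9, 24.8 and 38.6 CPM and *Eda2r* at 9.93, 6.27, 5.86 and 18.5 CPM. All of these overlapped WT, as did *Gadd45g* (48.2 to 98.6 CPM) and *Foxo4* (182 to 246 CPM). WT+TAM replicate 4 was the highest of its group for *Foxo1*, *Foxo3*, *Gadd45a*, *Gadd45b*, *Cdkn1a* and *Eda2r*.

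Under tamoxifen, Mtm1-/y + TAM against WT+TAM, 3 of the 8 passed in edgeR, 2 higher and 1 lower, where 20.1% of all genes passed (10.6% higher and 9.46% lower). *Eda2r* had a log2FC of 3.75 ± 0.34, or 13.5-fold (adjusted *P* = 1.85e-05). *Gadd45a* had a log2FC of 2.57 ± 0.32, or 5.93-fold (adjusted *P* = 0.000142). *Foxo4* was lower by a log2FC of -0.78 ± 0.13 (adjusted *P* = 0.000949), a wider gap than without the drug, although the difference between the gaps did not pass (interaction -0.39 ± 0.18, adjusted *P* = 0.458). The treated groups did not overlap for these 3, *Gadd45b* and *Cdkn1a*, 5 of the 8 against 31.6% of all genes.

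*Cdkn1a* (log2FC 1.24 ± 0.44, edgeR adjusted *P* = 0.0673) and *Gadd45b* (-0.95 ± 0.33, adjusted *P* = 0.0552) lay near the threshold. *Cdkn1a* passed in 2 of 24 alternative fits, without WT+TAM replicate 4 (log2FC 1.81, adjusted *P* = 0.00607) and in limma-voom (0.0287). Over these 24 fits its adjusted *P* ran up to 0.164 and its log2FC from 0.987 to 1.81. *Gadd45b* passed in 8 of 24 alternative fits, among them DESeq2 (0.015, 23.8% of all genes called) and limma-voom (0.0314, 19.7%). *Foxo1* (log2FC -0.44, interval -1.41 to 0.53), *Foxo3* (-0.37, -1.04 to 0.29) and *Gadd45g* (0.25, -0.39 to 0.90) overlapped between the treated groups. The *Gadd45a* share was 44.5% ± 7.76 in Mtm1-/y + TAM and 13.0% ± 4.43 in WT+TAM, without overlap. The exact permutation *P* was 0.0571, the smallest that 3 against 4 libraries allow, and 0.152 after adjustment, so this test could not pass.

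The interaction asked whether tamoxifen acted differently in the 2 genotypes. None of the 8 passed in edgeR, where 0.0% of all genes passed with 1650 genes at an unadjusted *P* under 0.05, and none passed in limma-voom. The widest were *Foxo1* (-2.16 ± 0.62, edgeR adjusted *P* = 0.357), *Cdkn1a* (-1.91 ± 0.62, adjusted *P* = 0.379), *Foxo3* (-1.60 ± 0.43, adjusted *P* = 0.321) and *Gadd45b* (1.13 ± 0.43, adjusted *P* = 0.414). DESeq2, which called 0.476% of all genes, called *Foxo1* (adjusted *P* = 0.0268) and *Foxo3* (0.0279). In group means, *Foxo1* went from 20.1 ± 1.75 to 36.3 ± 14.2 CPM with tamoxifen in wild type and from 66.3 ± 44.0 to 26.8 ± 1.82 CPM in the mutant. *Eda2r* (-0.17, interval -1.14 to 0.79) and *Gadd45a* (-0.39, -1.30 to 0.53) had intervals that include no difference.

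The pathway genes around the 8 were described by 6 lists, each read against the 30.4% of all genes that passed between Mtm1-/y and WT. These lists too were chosen with earlier results of these data known. Of 14 FoxO target genes, 6 rose and 2 fell (median log2FC 0.35). *Pdk4*, which spares glucose by inhibiting pyruvate dehydrogenase, was at 560.7 ± 79.3 CPM in WT and 1820.3 ± 757.7 in Mtm1-/y (log2FC 1.70, edgeR adjusted *P* = 0.0315). This call was lost in 7 of 15 fits that each left out a library (any WT library or Mtm1-/y replicate 1, 2 or 3, adjusted *P* up to 0.0821). The mTORC1 regulators *Sesn1* (22.1 ± 6.29 and 65.9 ± 58.9 CPM, log2FC 1.58, adjusted *P* = 0.0202) and *Sesn3* (log2FC 0.65, adjusted *P* = 0.000637), the translation repressor *Eif4ebp1* (1.47, adjusted *P* = 0.0059), *Cited2* and *Ccng2* also rose. Without Mtm1-/y replicate 1 the log2FC was smaller, at 0.73 for *Sesn1* and 0.86 for *Eif4ebp1*, and both still passed. The *Sesn1* call was lost without WT replicate 1 or WT replicate 2 (adjusted *P* up to 0.0571). The mitochondrial superoxide dismutase *Sod2* fell from 267 ± 20.2 to 161 ± 22.0 CPM (log2FC -0.74, adjusted *P* = 0.00106), as did the catalase gene *Cat*.

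Of 16 FoxO control genes, a list that also holds the paralogue *Foxo6*, 3 rose and 1, *Skp2*, fell (median log2FC -0.03, 25.0% called). The kinase gene *Akt2* rose from 92.8 ± 4.34 to 158 ± 21.0 CPM (log2FC 0.77, edgeR adjusted *P* = 4.18e-05), and *Pdpk1*, whose product activates AKT, rose by a log2FC of 0.63 (adjusted *P* = 0.00237). *Pik3r1*, the regulatory subunit of PI3-kinase, passed narrowly (0.99, adjusted *P* = 0.0479), and it failed in 12 of 15 fits that each left out a library, with adjusted *P* from 0.00689 to 0.162 and a log2FC of 0.67 without Mtm1-/y replicate 1. *Akt1* was at 75.1 ± 6.80 CPM in WT and 90.6 ± 34.0 in Mtm1-/y and did not pass (0.27, adjusted *P* = 0.299).

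Of 18 p53 pathway genes, 7 rose and 2 fell (median log2FC 0.44). *Perp*, a membrane protein of cell death, rose from 1.58 ± 0.432 to 7.12 ± 4.57 CPM (log2FC 2.15, edgeR adjusted *P* = 0.000959). The antiproliferative gene *Btg2* (1.69, adjusted *P* = 0.000866), the AKT antagonist *Phlda3* (1.12, adjusted *P* = 0.000191) and the p53 ubiquitin ligase *Mdm2* (0.52, adjusted *P* = 0.00284) rose with *Mdm4*, *Bax* and *Bbc3*, while *Ccng1* and *Rrm2b* fell. The transcript of p53 itself, *Trp53*, was at 16.3 ± 2.28 CPM in WT and 20.6 ± 3.05 in Mtm1-/y (0.34, adjusted *P* = 0.0956) and passed under tamoxifen (0.55, adjusted *P* = 0.0256), though not without WT+TAM replicate 1 or 4 or Mtm1-/y + TAM replicate 2 or 3 (up to 0.0977).

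Of 17 tested cell cycle inhibitors and targets (19 in the list, with *Cdkn2a* and *Ccnb1* under the filter), 3 rose and 4 fell (median log2FC -0.20). Of the 3 D cyclin genes, whose products p21 opposes, 2 fell, *Ccnd1* from 21.8 ± 4.69 to 4.86 ± 2.25 CPM (log2FC -2.17, edgeR adjusted *P* = 0.00917) and *Ccnd2* from 18.0 ± 1.67 to 5.92 ± 1.86 CPM (-1.61, adjusted *P* = 6.98e-05). *Ccnd3* had a log2FC of 0.31 and did not pass (adjusted *P* = 0.127). *Cdk1* and *Rbl1* fell too. The retinoblastoma gene *Rb1* rose (0.91, adjusted *P* = 0.00395, and 0.57 without Mtm1-/y replicate 1), with *Cdk6* and *Cdkn2d*. *Cdkn1b* and *Rbl2* stand both in this list and among the FoxO targets.

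Of 13 GADD45 inducers and kinase partners, 3 rose and 6 fell (median log2FC -0.23). The myogenic factor *Myog* rose from 7.95 ± 2.17 to 48.8 ± 17.6 CPM (log2FC 2.62, edgeR adjusted *P* = 0.000595) and the deacetylase *Hdac4*, an activator of *Gadd45a* in denervated muscle, from 33.9 ± 4.59 to 69.7 ± 8.50 CPM (1.04, adjusted *P* = 5.17e-05). The p38 kinase kinases moved apart, since *Map2k3* rose and *Map2k6* fell from 41.1 ± 9.42 to 9.54 ± 6.39 CPM (-2.12, adjusted *P* = 0.00225). The GADD45-bound kinase gene *Map3k4*, the kinase genes *Mapk9*, *Mapk11* and *Mapk14*, and *Ddit3* fell.

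Of 14 tested EDA2R signalling genes (16 in the list, with *Edaradd* and *Osm* under the filter), 7 rose and 1 fell (median log2FC 0.27). The gene that fell was the ligand *Eda*, from 5.58 ± 0.746 to 3.38 ± 0.423 CPM (log2FC -0.73, edgeR adjusted *P* = 0.00394), opposite to its receptor. The counts do not separate the A1 and A2 forms of the ligand. The sister receptor *Edar* was near 0 in every group (0.391 ± 0.14 CPM in WT and 0.452 ± 0.225 in Mtm1-/y). Of the NF-kappaB genes, *Nfkb2* rose most, from 12.9 ± 1.08 to 43.8 ± 12.5 CPM (1.76, adjusted *P* = 1.24e-05), with its partner *Relb* (1.14, adjusted *P* = 0.00791) and the kinase of the non-canonical branch *Map3k14* (0.996, adjusted *P* = 0.00507), and *Ikbkb*, *Rela*, *Nfkbia* and *Birc3* rose less.

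**Figure D4:**
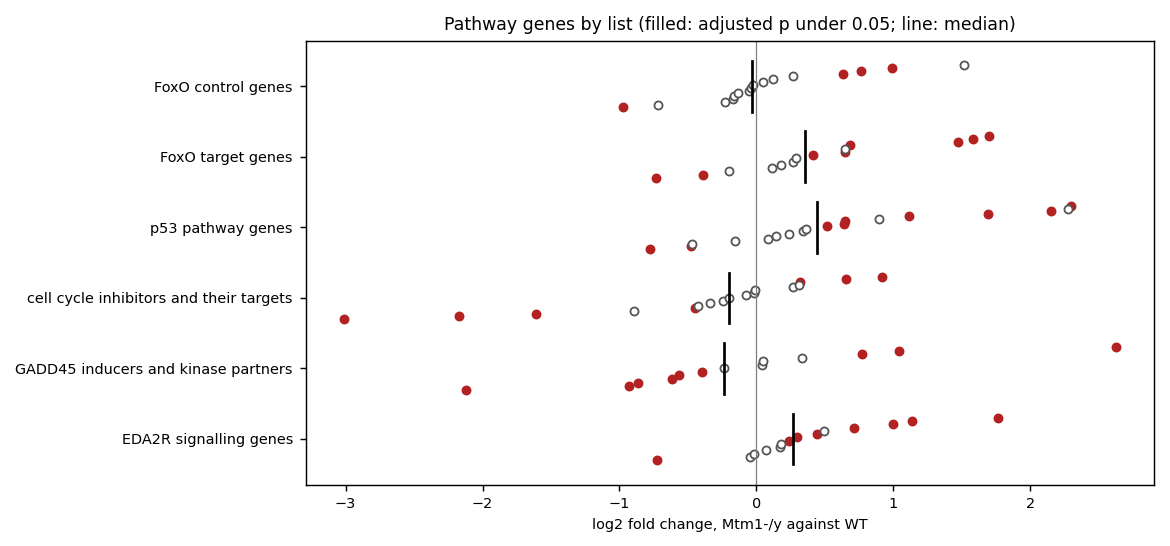
Log2 fold change between Mtm1-/y and WT of every tested gene in the 6 lists, with a row per list. Filled points passed an adjusted *P* value of 0.05, open points did not, and the vertical lines are list medians, from -0.23 for GADD45 inducers and kinase partners to 0.44 for p53 pathway genes.

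Of the 45 list genes called between Mtm1-/y and WT, 29 passed in each of the 15 fits that left out a library. The 16 that did not were *Pdk4*, *Sesn1* and *Pik3r1* (given above), *Cited2*, *Ccng2*, *Cat*, *Skp2*, *Mdm4*, *Cdkn2d*, *Rbl1*, *Cdk6*, *Ikbkb*, *Rela*, *Nfkbia* and *Birc3*, each lost in 3 to 12 of those fits, and *Mapk11*, lost without WT replicate 4 (adjusted *P* = 0.0546).

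With tamoxifen in both genotypes, the lists gave 6 rises and 2 falls among 18 p53 pathway genes, 5 and 1 among 14 EDA2R signalling genes, 3 and 4 among 13 GADD45 inducers and partners, 4 and 1 among 17 cell cycle genes, 2 and 1 among 14 FoxO targets and 1 and 0 among 16 FoxO control genes, against 20.1% of all genes. *Nfkb2* (2.03, edgeR adjusted *P* = 1.36e-05), *Myog* (2.83, adjusted *P* = 0.000887), *Perp* (2.24, adjusted *P* = 0.00221) and *Phlda3* (1.30, adjusted *P* = 0.00015) were among those that rose, and *Eda* fell again (-1.01, adjusted *P* = 0.00146). *Pdk4*, *Sesn1*, *Eif4ebp1*, *Btg2*, *Pdpk1*, *Pik3r1*, *Ccnd1* and *Map2k6* did not pass there. The log2FC was -0.64 for *Ccnd1* (edgeR adjusted *P* = 0.472) and -1.27 for *Map2k6* (adjusted *P* = 0.0619). For *Pik3r1* it was -0.66 (adjusted *P* = 0.249), opposite in sign to that without the drug. No gene of any of the 6 lists passed for tamoxifen in either genotype or for the interaction in edgeR.

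Markers of other cells, fibre type markers and immediate early genes were read against the same 30.4% of all genes passing between Mtm1-/y and WT. The share passing was highest in the endothelial and immediate early lists. It was also above 30.4% in the satellite cell and Schwann cell lists, at 2 of 5 genes each. In the macrophage, fibroblast, adipocyte, blood, slow fibre and fast fibre lists it was below 30.4%. All 5 endothelial markers were lower in Mtm1-/y, where they summed to 190.5 to 264 CPM against 376 to 493 in WT, and 6 of 7 immediate early genes were higher (156 to 258 against 60.6 to 104 CPM). Of the other markers 2 of 5 satellite cell genes were lower (28.0 to 48.5 against 35.8 to 39.4 CPM), 1 of 7 macrophage genes was higher (27.6 to 65.1 against 24.4 to 41.4 CPM) and 1 of 5 fibroblast genes was higher (324 to 1322 against 973 to 1257 CPM). Further, 2 of 5 Schwann cell genes were higher (68.9 to 102 against 51.5 to 77.4 CPM) and 0 of 5 adipocyte genes passed (143 to 209.6 against 188 to 225 CPM). Of 6 tested blood genes 1, *S100a8*, was higher, but the summed blood level was lower without overlap (17.8 to 67.0 against 69.2 to 96.3 CPM, median log2FC of the list -0.67). Lower were 1 of 5 slow fibre genes (29.7 to 39.0 against 22.2 to 42.3 CPM) and 2 of 7 fast fibre genes. No marker was at 0 in all 15 libraries. In WT+TAM replicate 1, slow fibre markers summed to 786 CPM and fibroblast markers to 3065 CPM, the highest of all libraries. The part of these markers in the results for the 8 genes was not tested.

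Across the 15 libraries, *Gadd45a* and *Eda2r* had the highest Pearson r of log2 CPM among pairs of the 8 genes (0.951), followed by *Foxo1* and *Foxo3* (0.923) and *Gadd45a* and *Cdkn1a* (0.901). After group means were subtracted, these values were 0.315, 0.941 and 0.720, and *Foxo1* and *Foxo3* were then the closest pair. Of all tested genes, the closest to *Foxo1* were *Doc2b* (0.957) and *Map3k6* (0.949), to *Foxo3* *Amotl2* (0.942) and *Pcnt* (0.938), and to *Foxo4* *Mtmr3* (0.970) and *Mkrn2* (0.963). The closest to *Gadd45a* were *Get4* (0.979) and *Tnfrsf23* (0.977), to *Gadd45b* *Fblim1* (0.947) and *Gm45338* (0.939), and to *Gadd45g* *2410022M11Rik* (0.830) and *Dedd* (0.816). *Jup* (0.952) and *Eid1* (0.946) were closest to *Cdkn1a*, and *Arpp19* (0.987) and *Chrnb1*, a subunit of the muscle acetylcholine receptor (0.980), to *Eda2r*. The points share the 4 groups and the scaling of each library, so pairs of genes that both differ between genotypes correlate through the groups, and for *Eda2r* and *Chrnb1* the value without group means was 0.380.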

How the data were processed

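RNA from the tibialis anterior of 15 mice was sequenced from TruSeq stranded mRNA libraries. The authors deposited raw read counts per Ensembl gene, without normalization. Per the labels, the submitters' processing notes list HTSeq 0.6.1p1, STAR 2.5.3a, Bowtie2 2.2.8 and cutadapt 1.10, with the builds GRCm38 and mm10. The sources used here do not give the annotation release, the strand setting or the role of each tool. All 30672 identifiers matched GENCODE M21, which gave symbols, coordinates (GRCm38) and exon lengths. Groups came from the labels, which do not say whether replicates were separate litters or extractions. Each library was treated as 1 mouse, and the *P* values set group differences against the spread between these libraries.

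Counts were fitted with edgeR 4.0.16 in R 4.3.3 (filterByExpr with minimum count 10, TMM factors, glmQLFit with robust estimation, 4 group means over 15 libraries, 11 residual degrees of freedom, common biological coefficient of variation 20.8%). Contrasts were tested with glmQLFTest and adjusted by Benjamini-Hochberg over 15533 genes, with a threshold of 0.05. Totals of 18042558 to 45823277 counts set the precision of each value. CPM values use TMM-scaled library sizes, and log2 CPM values a prior count of 2. Simulated counts holding known changes were used to test the code.

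Alternatives were RLE and upper-quartile factors, no filter, a filter of at least 50 counts in at least 3 libraries, DESeq2 1.42.0, limma-voom (limma 3.58.1), the compared groups alone, a replicate block, an added absolute log2 fold change over 1, each library left out, and Mtm1-/y replicate 1 and WT+TAM replicate 1 left out together. Family shares are percentages of length-scaled CPM, tested by two-sided exact permutation (scipy 1.17.1).

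The 8 genes, the lists and the tests were chosen with earlier results of these data known. Named besides the 8 are up to 3 called genes per list and comparison with the largest absolute log2 fold change (mean log2 CPM 1 or more), with *Trp53*, *Akt1*, *Eda*, *Edar*, *Foxo6* and *Mtm1*. *Ccnd3* was added after its value was seen. Other called list genes are named without values. Closest genes are the 2 with the highest Pearson r.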

Additional observations from a re-analysis of the deposited data

Results flagged for a closer look

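In 15 of 120 sets of 4 libraries examined (genes and shares, each within a group), the highest or lowest library was separated from the other three by more than a Dixon test at 95% allows. Chance gives about 1 in 20. The sets share libraries and are not independent.

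Of the 8 genes, *Eda2r* at 6.40 CPM in WT replicate 1 lay below the other WT libraries (10.3 to 10.9 CPM). The *Gadd45a* share of 6.37% in WT+TAM replicate 1 lay below the other WT+TAM libraries (14.8% to 15.7%).

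Mtm1-/y replicate 1, which stood apart in the principal components and was the highest of its group for *Foxo1*, *Foxo3*, *Foxo4*, *Gadd45a* and *Cdkn1a*, was separated for 7 listed genes. *Sesn1* was at 154 CPM (others 28.4 to 42.3), *Btg2* at 143 (56.7 to 66.9), *Eif4ebp1* at 125 (30.5 to 45.6), *Rb1* at 106 (49.6 to 52.1), *Pdpk1* at 89.6 (60.0 to 63.9) and *Perp* at 14.0 (4.58 to 5.12), all high, and *Foxo6* at 0.889 (4.42 to 4.66), low.

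In WT+TAM replicate 1, *Pik3r1* was high at 71.8 CPM (others 32.7 to 39.1), and *Map3k14* at 3.96 (6.33 to 6.73) and *Mdm2* at 51.8 (56.0 to 56.8) were low. WT+TAM replicate 2 was high for *Ccnd1* at 26.2 CPM (5.48 to 6.21) and *Myog* at 17.7 (5.26 to 6.05), and WT+TAM replicate 4 for *Sesn1* at 66.2 CPM (38.1 to 38.9).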

How the results depend on the processing

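Between Mtm1-/y and WT, *Foxo1*, *Foxo3*, *Gadd45a*, *Gadd45b*, *Cdkn1a* and *Eda2r* passed in all 24 alternative fits at the adjusted *P* threshold, as did *Gadd45a*, *Eda2r* and *Foxo4* under tamoxifen. Where a call changed, the cause was not tested unless stated.

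Among the 8 genes, DESeq2 called 2 in WT+TAM against WT (*Cdkn1a*, *Foxo3*) and 2 in the interaction, limma-voom called 5 in Mtm1-/y + TAM against WT+TAM, and the fit without the 2 libraries that stood apart called 1 in WT+TAM against WT (*Cdkn1a*), against 0, 0, 3 and 0 in edgeR. Leaving out each library gave 0 to 1 called in WT+TAM against WT, with *Cdkn1a* called without WT+TAM replicate 1.

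Over all genes, an added absolute log2FC over 1 left 1536 of 4727 calls between Mtm1-/y and WT and 934 of 3121 under tamoxifen. For tamoxifen in the mutant (2 calls), no filter and the compared groups alone each gave 1, DESeq2 4 and the fit without the 2 libraries 7, with 0 to 5 over the left-out libraries. In WT+TAM against WT (48 calls), DESeq2 gave 298 and the fit without the 2 libraries 347, with 11 to 143 over the left-out libraries (111 without WT+TAM replicate 1 and 143 without Mtm1-/y replicate 1). Leaving out a library gave 1656 to 4097 calls under tamoxifen, lowest without Mtm1-/y + TAM replicate 2. In the interaction (0 calls), no filter gave 2, DESeq2 74 and the fit without the 2 libraries 14, with 0 to 7 over the left-out libraries.

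Each value of the 8 genes that changed sign passed in no fit. Between Mtm1-/y and WT, *Akt1* became -0.0196 without the 2 libraries (-0.0198 to 0.407 over the left-out libraries) and *Edar* ran from -0.158 to 0.484, and *Trp53* passed without the 2 libraries (0.0427) or without Mtm1-/y replicate 3 (0.0443). For tamoxifen in the mutant, *Cdkn1a* became 0.0175 without the 2 libraries and ran from -0.205 to 0.0174 over the left-out libraries, *Eda2r* from -0.225 to 0.0321 and *Gadd45a* from -0.124 to 0.305. In WT+TAM against WT, *Gadd45g* became -0.0127 without the 2 libraries (-0.014 to 0.295 over the left-out libraries) and *Eda2r* -0.039 in limma-voom (-0.378 to 0.287). The *Eda2r* interaction ran from -0.374 to 0.290.

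The 21 same-numbered pairs of libraries from different groups deviated with correlations of -0.113 to 0.306 (median -0.00408, 6 over 0.1). The highest was Mtm1-/y replicate 2 with Mtm1-/y + TAM replicate 2. These values cannot show whether the numbers pair the mice, and the labels do not say. A replicate block gave 4473, 2, 33 and 2792 calls in the 4 comparisons in the order of the report, changed no call of the 8 genes (the calls of *Sesn1* and *Pik3r1* between Mtm1-/y and WT were lost), and turned the sign of *Cdkn1a* (0.033) and *Eda2r* (0.0949) for tamoxifen in the mutant, of *Eda2r* in WT+TAM against WT (-0.015) and of the *Eda2r* interaction (0.11).

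The difference in *Gadd45a* share between Mtm1-/y and WT ran from 25.3 to 35.9 percentage points and that in *Foxo1* share from 6.72 to 11.5 over the left-out libraries, each with an exact permutation *P* of 0.0571, the smallest 3 against 4 libraries allow. The tamoxifen difference in *Gadd45a* share in the mutant ran from -0.946 to 9.75 points.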
